A study of Mus musculus with 474 samples.

Results

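Mouse skeletal muscle libraries with the most and the least Scd1 RNA were compared across all other genes. Scd1 encodes stearoyl-CoA desaturase 1, the enzyme that puts a double bond into saturated fatty acids. The libraries came from Diversity Outbred mice, an outbred stock in which each animal carries its own mixture of the genomes of inbred founder strains. Each library is 1 animal, labelled female or male, and 5 numbers in the titles (17, 18, 19, 21 and 23) were read as generations of the stock. All animals were given a high-fat, high-sugar diet whose label reads 45percent fat, and no group had another diet or an engineered allele. In each of the 10 groups of sex and generation, which held 45 to 50 libraries, the 5 libraries with the highest and the 5 with the lowest deposited Scd1 score were taken. This gave 50 Scd1-high and 50 Scd1-low libraries, 100 in all or 21.1% of the series, and left 78.9% in neither set. The sets were chosen by a measured value and are not groups of the study, so Scd1 itself is described with no test.

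Fatty acids are built from citrate that leaves the mitochondrion, is split to acetyl-CoA, carboxylated to malonyl-CoA and joined by fatty acid synthase. Elongases and desaturases such as Scd1 then lengthen the products and add double bonds. Fat cells use this pathway to store triglyceride, while muscle fibres mostly burn fatty acids. A muscle sample can hold fat cells that lie between the fibres, and it can hold other tissue cut along with the muscle. Adipoq encodes adiponectin, a hormone made by fat cells, and served here as their marker.

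Scd1 lies on chromosome 19 from base 44394455 to 44407879 on the minus strand of GRCm38. In CPM, counts scaled to a common library total, the Scd1-high libraries held from 861.8 to 4232 with a median of 1853, and the Scd1-low libraries from 66.5 to 247.4 with a median of 168.8. The medians thus lay 11.0-fold apart. The score that ranked the libraries is the variance stabilising transform (VST), which is close to log2. The fifth highest score of a group lay between 16.10 and 17.27 and the sixth, just outside the set, between 16.08 and 17.27. The fifth lowest lay between 13.46 and 14.29 and the sixth lowest between 13.51 and 14.35. Libraries just inside and just outside the sets differed by a median of 0.08 at the upper border and 0.055 at the lower, so the sets are the ends of one continuous range.

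The label of both sets was checked on Fasn, which encodes fatty acid synthase. Fasn ran from 49.1 to 1286 CPM (median 213.7) in the Scd1-high libraries and from 12.5 to 55.5 CPM (median 27.9) in the Scd1-low libraries. In 48 of 50 Scd1-high libraries it lay above every Scd1-low library. Muscle fibre RNA (Acta1, Ckm and Myh4 summed) was abundant in all of them. It ran from 68060 to 130800 CPM (median 99520) in the high set and from 72180 to 128600 CPM (median 107900) in the low set.

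Total counts ran from 51.3 to 129.5 M read ends in the high set and from 56.3 to 128.4 M in the low set, and from 35.9 to 165.7 M over all libraries. The mean was 77.5 ± 15.6 M (SD, n = 50) in the high set and 83.7 ± 16.8 M (SD, n = 50) in the low set, a difference of -6.22 M that did not pass the threshold (permutation test within groups, 2-sided, p = 0.0541). The TMM scaling factor had a median of 1.03 in the high set and 0.98 in the low set. Of 5 libraries whose sex-linked RNA went against the label, 1 was in the high set and 1 in the low set. Each set also differed in rarer RNA. Ucp1, the heat-producing uncoupling protein of brown fat, reached 1 CPM in 33 of 50 Scd1-high libraries, in 0 of 50 Scd1-low libraries and in 46 of the others. The 5 lymphocyte genes followed here (Cd79a, Ms4a1, Cd3g, Cd3e and Cd8a, chosen after their values were seen) summed to 5 CPM or more in 15 Scd1-high libraries, 0 Scd1-low libraries and 16 of those in neither set.

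The 250 bases before the start of 4 genes are shown. Fasn, Slc25a1 and Elovl6 were called between the sets and between sets chosen by Scd1 after Adipoq was taken out. Adipoq served as the covariate. With Adipoq as covariate Slc25a1 was called, and Fasn and Elovl6 were not. Other genes called in the same comparisons as Fasn, such as Acly and Acaca, are not shown. They are RefSeq sequences on GRCm38.p6, written 5′ to 3′ on the strand of the gene. Capitals mark CCAAT boxes, searched as CCAAT, and E-boxes, searched as CACGTG, on both strands, and the SREBP site searched as TCACNCCAC was in none of them. The run CCAATTGG before Fasn holds CCAAT on both strands, overlapping, and the Elovl6 window holds none of the 3 motifs. Fasn lies at chr11:120824548-120824797 (minus strand), Slc25a1 at chr16:17928220-17928469 (minus strand), Elovl6 at chr3:129532136-129532385 (plus strand) and Adipoq at chr16:23146286-23146535 (plus strand).
Fasn: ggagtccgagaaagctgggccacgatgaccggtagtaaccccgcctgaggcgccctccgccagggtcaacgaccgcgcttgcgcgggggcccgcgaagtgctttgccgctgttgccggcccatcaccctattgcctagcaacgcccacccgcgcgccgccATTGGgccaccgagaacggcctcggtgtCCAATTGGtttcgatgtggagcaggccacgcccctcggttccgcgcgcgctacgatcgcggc
Slc25a1: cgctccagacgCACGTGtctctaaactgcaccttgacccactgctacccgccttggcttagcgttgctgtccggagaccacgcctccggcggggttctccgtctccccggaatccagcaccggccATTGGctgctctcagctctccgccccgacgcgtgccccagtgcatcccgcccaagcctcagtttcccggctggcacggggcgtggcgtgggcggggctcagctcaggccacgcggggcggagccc
Elovl6: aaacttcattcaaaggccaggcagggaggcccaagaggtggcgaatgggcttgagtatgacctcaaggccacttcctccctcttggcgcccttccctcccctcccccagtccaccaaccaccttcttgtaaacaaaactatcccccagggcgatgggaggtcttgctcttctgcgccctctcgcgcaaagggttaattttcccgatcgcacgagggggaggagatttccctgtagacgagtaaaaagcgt
Adipoq: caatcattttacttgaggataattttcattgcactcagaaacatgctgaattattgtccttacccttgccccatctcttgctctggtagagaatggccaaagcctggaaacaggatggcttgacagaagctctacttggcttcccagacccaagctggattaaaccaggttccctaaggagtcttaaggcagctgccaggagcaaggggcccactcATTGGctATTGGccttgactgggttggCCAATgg

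CCAAT stood in 33.85% of 32851 such windows, CACGTG in 6.02% and TCACNCCAC in 1.05%. All 12 fatty acid synthesis genes had a window, 8 of the 12 held CCAAT and 1 held CACGTG. By gene, 37.5% of all 27025 symbols held CCAAT. A match is a string of letters and not a measured binding site. No window is shown for Scd1.

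Between the sets, 4611 of 18822 tested genes (24.5%) differed at an adjusted p under 0.05 by the quasi-likelihood test of edgeR, with the 10 groups as covariate. In the Scd1-high libraries 2768 genes were higher (14.7% of those tested) and 1843 were lower (9.79%). With scaling by total count alone, which moved the median log2 difference of all genes from -0.01 to 0.06, 3846 were higher and 169 lower, so the higher share of called genes went from 60% to 95.8%. The small falls depend on that scaling. At a difference of 1.5-fold or more, 1246 genes were called (6.62% of those tested), 1230 higher and 16 lower, and 2.91% of the genes with a mean of at least 1 CPM. Of the called genes, 25.8% had the same sign in all 10 groups, and of those at 1.5-fold 41%. The count of called genes was 1662 (8.83%) without the 15 libraries with lymphocyte RNA and 907 (4.82%) without the 33 libraries with Ucp1. Fewer libraries were also compared there, and all those left out were Scd1-high. The libraries with Ucp1 were 23 of 25 female and 10 of 25 male Scd1-high libraries, so few females were left in the high set. The part of these libraries in the 4611 calls was not tested.

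Most genes of fatty acid synthesis rose. Of 12 genes on that list, 8 were higher and 0 lower, against 14.7% and 9.79% of all genes, and the median log2 difference over the list was 0.87 against -0.01 over all genes. Slc25a1, the mitochondrial carrier that exports citrate, ran from 2.70 to 41.1 CPM (median 10.8) in the high set and from 0.985 to 3.35 CPM (median 1.92) in the low set. The ranges barely overlapped, since 49 of 50 Scd1-high libraries lay above every Scd1-low library. Its log2 difference was 2.50 ± 0.12 (SE, adjusted p = 1.41e-34). Acly, which splits citrate to acetyl-CoA, ran from 14.5 to 265.4 CPM (median 36.96) against 13.2 to 22.4 CPM (median 16.97), a log2 difference of 1.35 ± 0.13 (SE, adjusted p = 1.12e-14). Acaca, which makes malonyl-CoA in the cytosol, ran from 32.7 to 300.8 CPM (median 68.7) against 22.25 to 49.7 CPM (median 32.9). For Acly and Acaca the low libraries were tightly grouped while the high libraries spread widely, and 39 and 31 high libraries lay above every low one.

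Fasn differed by 3.05 ± 0.18 on the log2 scale (SE, adjusted p = 1.41e-27) and was higher in all 10 groups. The NADPH-producing enzymes G6pdx (log2 difference 1.41), Pgd (0.55) and Idh1 (0.48) also rose. Me1, malic enzyme, which makes NADPH as well, had a log2 difference of 0.04 ± 0.05 (SE, adjusted p = 0.599). Acacb, the acetyl-CoA carboxylase at the mitochondrion that serves the control of fatty acid burning, averaged 442.1 ± 66 CPM in the high set and 463.8 ± 64 CPM in the low set (SD, n = 50 each), and its difference was -0.07 ± 0.04 (adjusted p = 0.21). Not all members of the list passed the test.

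Among elongases and desaturases other than Scd1, 11 of 16 were higher and 0 lower, beside 14.7% and 9.79% of all genes, with a median log2 difference of 0.68. Elovl6, which lengthens palmitate to stearate, the substrate of Scd1, ran from 1.19 to 61.1 CPM (median 6.32) in the high set and from 0.724 to 3.54 CPM (median 1.14) in the low set. Of the high libraries, 28 lay above every low one, so the sets overlapped in part. Its log2 difference was 2.62 ± 0.22 (SE, adjusted p = 4.79e-18). Hacd2 (1.56) and Hsd17b12 (1.05), which act in the elongation cycle, and Fads3 (1.33), a member of the desaturase family, rose as well.

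The other desaturase genes of the Scd cluster lie within 0.2 Mb of Scd1. Scd2 ran from 25.7 to 126.7 CPM (median 45.8) in the high set and from 12.6 to 117.3 CPM (median 24.9) in the low set, and 1 high library lay above every low one. The count rests on the male Scd1-low library at 117.3 CPM, since the low males had a median of 27.8 CPM, and among females 22 of 25 high libraries lay above every low one. Its log2 difference was 0.79 ± 0.10 (SE, adjusted p = 1.32e-09). Scd3 was near the limit of detection, with medians of 0.09005 and 0.0276 CPM, and its log2 difference was 1.73 ± 0.48 (adjusted p = 0.00389). Scd4 had a log2 difference of 0.20 ± 0.23 (adjusted p = 0.594). These genes resemble Scd1 in sequence, so reads of Scd1 counted for a relative would raise them, and the counting does not show how such reads were split.

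Regulators of lipid synthesis moved in both directions. Of 15 on the list, 4 were higher (26.7%) and 3 lower (20%), beside 14.7% and 9.79% of all genes, with a median log2 difference of 0.0046. Srebf1, which encodes the SREBP-1 factors that switch on lipogenic genes, had medians of 40.2 CPM in the high set and 38.2 CPM in the low set and a log2 difference of 0.10 ± 0.10 (SE, adjusted p = 0.534). Srebf1 differed by 0.37 ± 0.12 in females (adjusted p = 0.0214) and by -0.18 ± 0.14 in males (adjusted p = 0.585), and the test of the difference between the sexes did not pass (adjusted p = 0.12). Mlxipl, which encodes the glucose-responsive factor ChREBP, was lower in the high set by -0.18 ± 0.05 (adjusted p = 0.00317). Thrsp, a lipogenic protein induced by thyroid hormone, ran from 3.44 to 102.3 CPM (median 14.15) in the high set and from 1.48 to 8.58 CPM (median 4.26) in the low set, a log2 difference of 1.94 ± 0.17 (adjusted p = 3.75e-17). Pparg, the factor that directs fat cell formation, differed by 1.16 ± 0.08 (adjusted p = 5.7e-24), and Insig1, which holds SREBP back in the endoplasmic reticulum, by 1.02 ± 0.09 (adjusted p = 8.4e-18). The transcript of an SREBP gene does not show how much of the protein was processed.

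**Figure D1:**
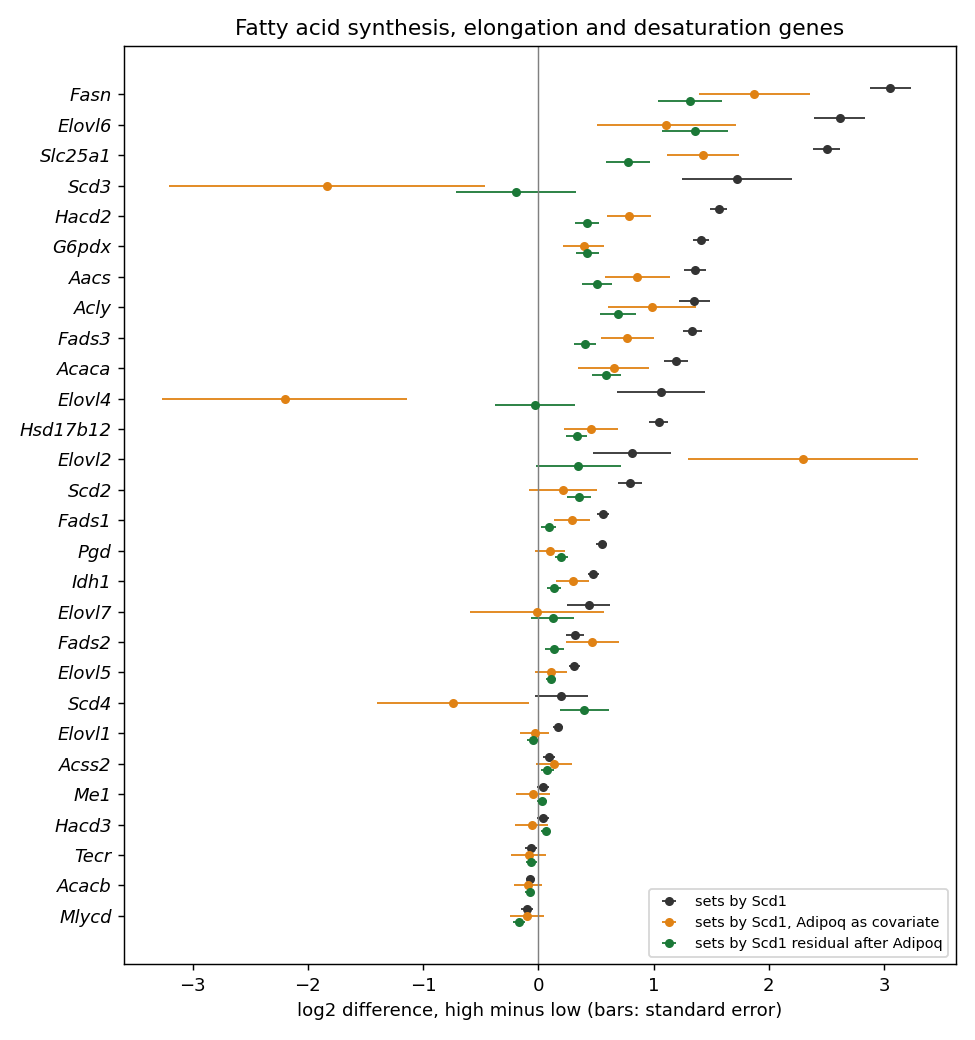
Log2 differences, high minus low, of the fatty acid synthesis list and the elongase and desaturase list (1 gene per line), with bars of 1 standard error. Black points compare the 50 Scd1-high with the 50 Scd1-low libraries, orange points the same libraries with Adipoq as covariate, and green points 50 against 50 libraries chosen by Scd1 after Adipoq was taken out. Fasn stands to the right of 0 in all 3 comparisons (3.05, 1.88 and 1.32), and the orange bars are longer than the black ones.

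Most fat cell genes rose too. Of 16 genes on the adipocyte list, 15 were higher and 0 lower, beside 14.7% and 9.79% of all genes, with a median log2 difference of 2.43. Adipoq ran from 18.4 to 94.6 CPM (median 43.6) in the high set and from 1.13 to 12.5 CPM (median 5.78) in the low set. No Scd1-high library overlapped any Scd1-low library in Adipoq, within groups or over all 100. The log2 difference of Adipoq was 2.92 ± 0.11 (SE, adjusted p = 3.11e-40). Plin1, which coats the lipid droplet of fat cells, differed by 3.16 ± 0.12, and Cidec, which helps droplets fuse, by 2.999 ± 0.11. Lep, the hormone leptin, ran from 1.30 to 97.2 CPM (median 14.5) against 0.0588 to 5.32 CPM (median 1.89).

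The genes that rose most, among those with a mean of at least 1 CPM and the same sign in all 10 groups, were Ucp1, Pck1, Ces1f, Adrb3, Alb, Arxes2, Prkar2b, Tmem45b, Lep and Plin1. Alb, the albumin gene, reached a mean of 1 CPM through a single library of neither set, at 763.4 CPM. Without it the mean of Alb fell from 1.95 to 0.342 CPM, and its medians were 0.369 CPM in the high and 0.0311 CPM in the low set. Pck1 makes the glycerol backbone for triglyceride in fat cells, Adrb3 is their adrenergic receptor, and Prkar2b is a regulatory subunit of protein kinase A that is abundant in fat. Pck1 had medians of 98.4 and 5.84 CPM and a log2 difference of 3.93 ± 0.20 (SE, adjusted p = 8.56e-32). Prkar2b ran from 7.95 to 52.3 CPM (median 19.6) in the high set and from 0.783 to 4.20 CPM (median 1.97) in the low set, with no overlap, and differed by 3.38 ± 0.12 (adjusted p = 4.28e-44). Ucp1 had medians of 5.93 and 0.0766 CPM and a log2 difference of 7.17 ± 0.59 (adjusted p = 1.96e-18). Its range in the high set, 0 to 203.3 CPM, included 10 libraries with no Ucp1 count. Of 7 brown adipocyte genes tested, 6 were higher and 1 lower, beside 14.7% and 9.79% of all genes.

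**Figure D2:**
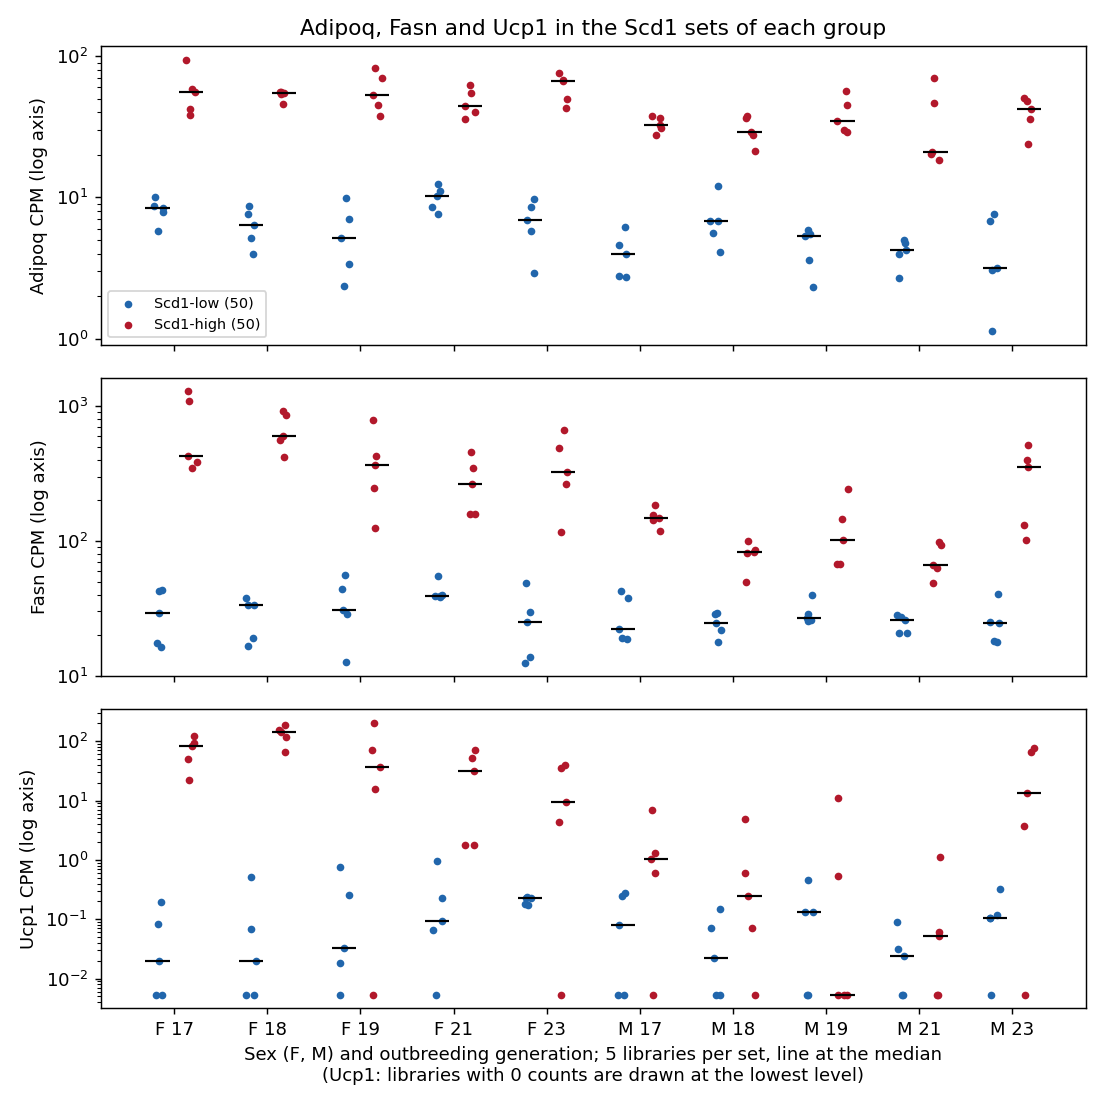
Adipoq, Fasn and Ucp1 in CPM on a log axis for each library of both sets in the 10 groups of sex (F, M) and generation, red for Scd1-high and blue for Scd1-low, with a line at the median of the 5 libraries. Adipoq does not overlap between the sets in any of the 10 groups, and Ucp1 is high in more of the female than of the male Scd1-high libraries.

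The largest falls by the same rule were smaller than the rises. Hoxa11os, A330094K24Rik, Tceal5, Mustn1, Fhl3, Hoxa11, Fbp2, En1, Mical2 and Pold2 fell by 0.50 to 0.25 on the log2 scale. Hoxa11, a limb patterning gene, had medians of 3.24 CPM in the high set and 3.83 CPM in the low set, and Fhl3, a muscle LIM protein, 79.5 and 102.4 CPM. The sets overlapped almost fully in each, and in the libraries of neither set Hoxa11os, Hoxa11 and En1 were called with a negative slope on Scd1 while the other 7 were not called. Of 12 fast fibre genes, 0 were higher and 6 lower, beside 14.7% and 9.79% of all genes, among them Tnnt3 (-0.13) and Myh2 (-0.22). Of 9 slow fibre genes, none was called, and Myh7 differed by -0.13 ± 0.12 (SE, adjusted p = 0.473). In bulk tissue, fewer cells of a type and less RNA per cell cannot be told apart.

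Genes that burn fatty acids in muscle moved little. Of 20 fatty acid oxidation genes, 1 was higher and 1 lower, together 10% beside 24.5% of all genes. Cpt1a differed by 0.15 ± 0.05 (SE, adjusted p = 0.0185) and the muscle form Cpt1b by -0.14 ± 0.03 (adjusted p = 0.00046). Pdk4, which turns muscle from glucose to fat as fuel, had medians of 1389 and 1152 CPM, with a log2 difference of 0.13 ± 0.12 (adjusted p = 0.474). Of 19 genes of insulin action and glucose uptake, 1 was higher and 3 lower, together 21.05% and near the 24.5% of all genes, so the count does not set these genes apart. The 3 lower were Slc2a4, the insulin-responsive glucose transporter, at -0.19 ± 0.03 (adjusted p = 6.83e-08), Hk2 (-0.25) and Gys1 (-0.15).

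The other lipid lists are read beside the same shares of all genes, 14.7% higher and 9.79% lower. Of 16 triglyceride synthesis genes 7 were higher (43.75%) and 1 lower (6.25%), with Agpat2 at 1.96 and Dgat2 at 0.89. Of 16 lipid droplet and lipolysis genes 9 were higher (56.25%) and 1 lower (6.25%), with Lipe, hormone-sensitive lipase, at 1.34. Of 13 fatty acid uptake genes 5 were higher (38.5%) and 1 lower (7.69%), with Fabp4, the fatty acid binding protein of fat cells, at 1.59. Of 13 genes of the PPAR fuel switch 5 were higher (38.5%) and 3 lower (23.1%), with Angptl4, an inhibitor of lipoprotein lipase, at 1.35. Of 21 cholesterol synthesis genes 9 were higher (42.9%) and 1 lower (4.76%), with Hmgcs1 at 0.37 and a list median of 0.16.

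Markers of some other cells moved too. Of 10 macrophage genes 10 were higher and 0 lower, beside 14.7% and 9.79% of all genes, with a median log2 difference of 0.38, and their summed level ran from 76.5 to 318.7 CPM (median 125.1) in the high set and from 44.85 to 158.2 CPM (median 98.4) in the low set. Of 9 genes of fibro-adipogenic progenitors, the connective tissue cells that can become fat cells, 4 were higher (44.4%) and 0 lower. Of 8 endothelial genes 1 was higher and 1 lower, together 25% beside 24.5% of all genes, which is no movement of the group. Of 6 Schwann cell and 5 erythroid genes none was called. Of 15 immediate-early genes 1 was higher and 1 lower (13.3% beside 24.5% of all genes). Of 17 clock genes 0 were higher and 4 lower (23.5% beside 9.79% of all genes lower). In both directions together, 23.5% of the clock genes were called, near the 24.5% of all genes. Dbp, at -0.59 ± 0.26 (SE, adjusted p = 0.0924), was not among those called. The lymphocyte genes had large fitted differences, such as 5.49 ± 0.69 (SE, adjusted p = 2.98e-10) for Cd3g, a part of the T cell receptor complex, but the median of Cd3g was 0.0402 CPM in the high set and 0 CPM in the low set, and 17 Scd1-high libraries lay above every Scd1-low library. Without the 15 libraries with lymphocyte RNA, Cd3g differed by 0.75 (adjusted p = 0.348). Cd3g is one of the 5 genes by which these libraries were picked, so its fall was built into that choice. The part of these other cell types in the differences between the sets was not tested.

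Adipoq followed Scd1 closely over all libraries, and not at the ends of the range alone. After the 10 groups were taken out, the VST scores of both genes had Pearson r = 0.894 and Spearman rho = 0.881 (permutation test within groups, 2-sided, 100000 resamples, p = 1e-05 and adjusted p = 1e-05 for each over 13 relations, the smallest they can give), so they shared 79.9% of their variance. Without the 2 libraries farthest from the median of Adipoq r was 0.890. Over the blocks of 96 library numbers r ran from 0.867 to 0.919. In females r was 0.891 and in males 0.896. In the libraries of neither set, where the range is cut at both ends, r was 0.792 and the shared variance 62.75%.

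**Figure D3:**
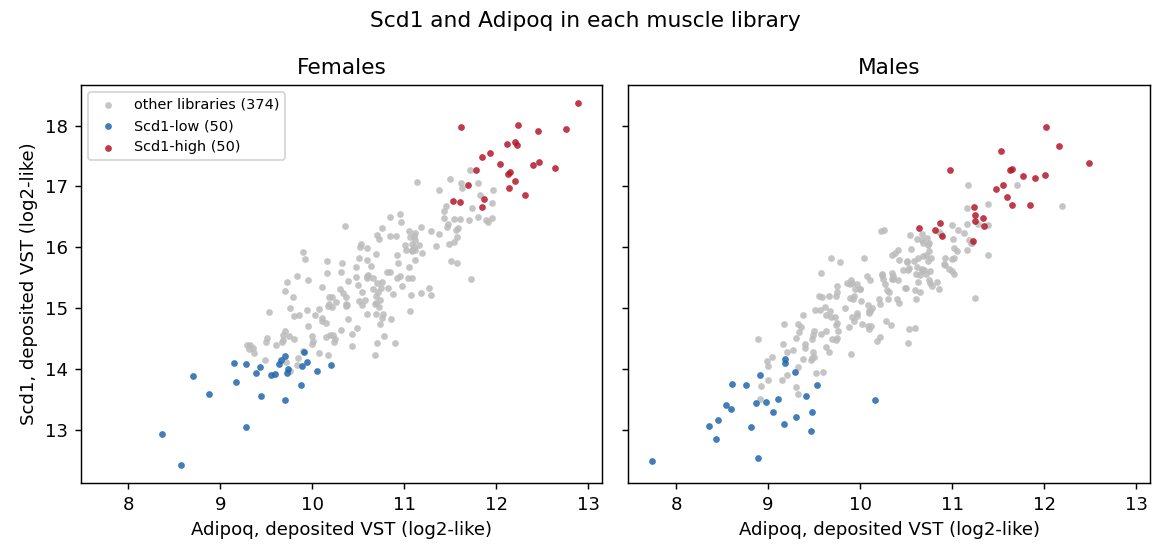
The deposited VST score (a log2-like scale) of Scd1 against that of Adipoq, 1 point per library, with females on the left and males on the right. Red points are the 50 Scd1-high, blue the 50 Scd1-low and grey the other libraries. The points form one band in each sex (r = 0.891 in females and 0.896 in males within groups), and red and blue do not overlap on the Adipoq axis within any group.

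How far the differences between the sets go with Adipoq was first asked by adding its log2 CPM as a covariate. Then 9 of 18821 genes (0.0478%) were called, 8 higher and 1 lower, where 4611 had been called before. The set and Adipoq are nearly the same variable. Within groups, Adipoq accounted for 88.9% of the variance of set membership, which is expected to widen the standard errors 2.998-fold. The median standard error of the called genes went from 0.0611 to 0.182, while their median log2 difference, in the called direction, went from 0.241 to 0.1345, and 77.35% kept their sign. Among the genes called at 1.5-fold, the median difference went from 1.14 to 0.815, 88.2% kept their sign and 28.5% had an unadjusted p under 0.05. The calls were thus lost both with wider errors and with smaller differences. With all libraries and Scd1 as a slope, 6853 genes (36.4%) were called without Adipoq and 1704 (9.05%) with it.

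**Figure D4:**
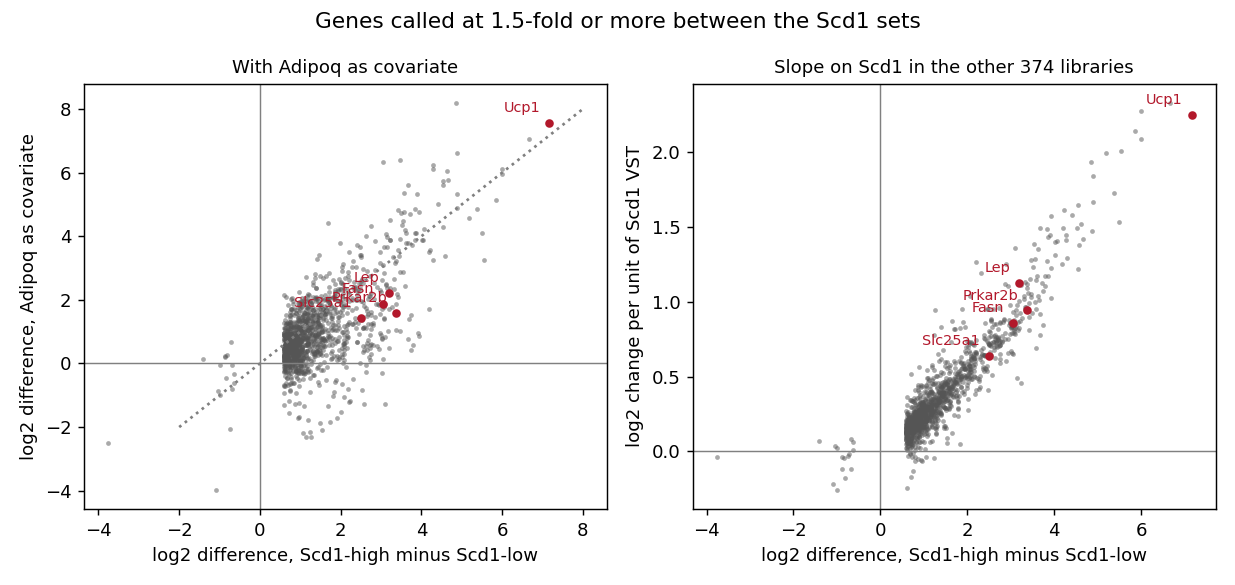
Genes called at 1.5-fold or more between the sets, 1 point per gene. The left panel sets the log2 difference with Adipoq as covariate against the difference without it, with a dotted line where both are equal, and the right panel the log2 change per unit of Scd1 VST in the libraries of neither set. In the left panel 88.2% of the points keep their sign, with a median of 0.815 in place of 1.14.

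The 8 genes called as higher with Adipoq held fixed were Trarg1, Prkar2b, Sncg, Agpat2, Slc25a1, Tshr, Srgap3 and Ucp1, and Amigo1 was lower. Trarg1, which acts in the traffic of the glucose transporter of fat and muscle, ran from 4.56 to 24.6 CPM (median 12.3) in the high set and from 0.885 to 3.44 CPM (median 2.05) in the low set, with no overlap. Its log2 difference was 2.64 ± 0.09 without Adipoq and 1.64 ± 0.25 with it (SE, adjusted p = 6.51e-05). Prkar2b kept 1.59 ± 0.26 (adjusted p = 0.000192) and Sncg, a synuclein found in fat cells and neurons, 1.24 ± 0.25 (adjusted p = 0.0188). Slc25a1 kept 1.43 ± 0.31 and Agpat2, which makes phosphatidic acid for triglyceride, 1.46 ± 0.32 (adjusted p = 0.0358 for each). Srgap3 differed by 1.10 ± 0.24 with Adipoq (adjusted p = 0.0358) but by 0.24 ± 0.09 without it, and in both other comparisons that took Adipoq out it did not pass, with 0.11 (adjusted p = 0.518) in the sets chosen after Adipoq and a slope of 0.0088 (adjusted p = 0.953) in the libraries of neither set. Fasn kept 1.88 ± 0.48 (adjusted p = 0.155), Acly 0.99 ± 0.38 (adjusted p = 0.469) and Elovl6 1.11 ± 0.61 (adjusted p = 0.663), none past the threshold. Of the fatty acid synthesis list 1 of 12 was called, beside 0.0478% of all genes, with a median of 0.35. Trarg1 and Sncg stand on the adipocyte list and Ucp1 on the brown adipocyte list. Between sets of libraries, the count of called genes under other settings of this fit ran from 1, without generation 23, to 37, with the 10 highest and 10 lowest libraries of each group.

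A second comparison chose libraries by Scd1 after Adipoq was taken out. In each group the VST of Scd1 was fitted on that of Adipoq, and the 5 highest and 5 lowest residuals gave 50 against 50 libraries. The 50 highest held 10 Scd1-high and 0 Scd1-low libraries, and the 50 lowest held 17 Scd1-low libraries and 1 Scd1-high library. Scd1 in these sets ran from 284.5 to 3238 CPM (median 753.1) and from 66.5 to 2006 CPM (median 287.7), which again is how they were chosen. Adipoq had medians of 12.8 and 16.4 CPM, a small difference that the choice of these sets also fixes. Between these sets 370 genes (1.97%) were called, 177 higher (0.94%) and 193 lower (1.03%). Without the 8 libraries with lymphocyte RNA 100 genes were called, and without the 18 with Ucp1 185. With blocks of 96 library numbers as a covariate 3.04% of genes were called.

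With Adipoq taken out in this way, some lipogenic genes were still higher and none of the listed regulators was called. Of 12 fatty acid synthesis genes 7 were higher and 0 lower, against 0.94% and 1.03% of all genes, with a median log2 difference of 0.31. Fasn ran from 21.8 to 1084 CPM (median 65.6) in libraries with more Scd1 than Adipoq predicts and from 12.5 to 661.1 CPM (median 36.9) in those with less. These ranges overlapped widely, and the log2 difference was 1.32 ± 0.28 (SE, adjusted p = 0.00843). Elovl6 differed by 1.36 ± 0.29 (adjusted p = 0.00927), Slc25a1 by 0.78 ± 0.19 (adjusted p = 0.0207), Acly by 0.69 ± 0.15 (adjusted p = 0.0123) and Acaca by 0.59 ± 0.13 (adjusted p = 0.00993). G6pdx, Aacs and Pgd were the other 3 called members. Of 16 elongases and desaturases 5 were higher: Elovl6, Hacd2, Fads3, Hsd17b12 and Scd2. Of 15 regulators 0 were called, with a median of -0.05, and Thrsp differed by 0.66 (adjusted p = 0.0916), Pparg by 0.298 (adjusted p = 0.0572) and Insig1 by 0.30 (adjusted p = 0.0825). Of the adipocyte list 2 of 16 were called, Trarg1 (0.68) and Sncg (0.54), while Plin1 (0.57 ± 0.19, adjusted p = 0.0757) and Cidec (0.28 ± 0.19, adjusted p = 0.485) did not pass the test. Ucp1 reached 1 CPM in 13 of these high and 5 of these low libraries, and lymphocyte RNA was present in 4 of each.

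The libraries that the rule placed in neither set come from other animals. In them the slope on Scd1 was fitted, over a range that the rule cut at both ends. There, 3319 genes (17.6%) were called for the slope on Scd1, 2170 with a positive and 1149 with a negative slope. Of the 4611 genes called between the sets, 50.7% were called here with the same sign and 95.7% had the same sign, and of the genes called at 1.5-fold, 78.65% were called with the same sign. Fasn changed by 0.86 ± 0.05 on the log2 scale per unit of Scd1 VST (SE, adjusted p = 2.72e-46), and Adipoq by 0.79 ± 0.03 (adjusted p = 4.73e-74). Without the 16 libraries with lymphocyte RNA 2050 genes were called, and without the 46 with Ucp1 2360.

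With Adipoq as a covariate in these libraries, 776 genes (4.12%) were called, 51.5% of them with a positive slope. The covariate is less tied to Scd1 here than in the sets, more libraries were fitted and Scd1 entered as a slope. Many lipogenic genes passed, and the part of each of these changes in the calls was not tested. Of 12 fatty acid synthesis genes 7 had a positive and 1, Mlycd, which breaks down malonyl-CoA, a negative slope. Fasn changed by 0.93 per unit of Scd1 VST (adjusted p = 9.79e-22), Elovl6 by 0.82 (adjusted p = 2.01e-10), Slc25a1 by 0.52 (adjusted p = 2.02e-16) and Acly by 0.44 (adjusted p = 5.13e-15). Of 15 adipocyte genes 9 were called, all with a positive slope, and Plin1 kept 0.47 (adjusted p = 1.18e-29). Adipoq held fixed therefore did not hold all fat cell genes fixed. With the stretches of library numbers as covariate 1.9% of genes were called and with blocks of 96 library numbers 2.01%.

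Part of the lipogenic genes, and some fat cell genes, differed more between the sets in females than in males. The mean Scd1 score of high minus low was 3.57 in females and 3.49 in males, and Adipoq differed by 2.93 and 2.91 on the log2 scale, a male minus female effect of -0.02 (adjusted p = 0.985). Between the sets, 4085 genes (21.7%) were called in females alone and 946 (5.03%) in males alone, with 50 libraries each. A test of the difference between the sexes called 2% of genes, of which 95.2% had a smaller difference in males. Fasn differed by 3.85 ± 0.24 (SE) in females and 2.26 ± 0.18 in males, a difference of -1.58 (adjusted p = 0.000436). In CPM, Fasn had a median of 417.2 in female and 102.1 in male Scd1-high libraries and of 33.3 and 25.3 in the Scd1-low libraries. Thrsp (-1.67), Elovl6 (-1.74), Acly (-1.20), Acaca (-1.04) and Agpat2 (-1.11) also differed less in males. The test called 4 of 12 fatty acid synthesis genes, 3 of 16 elongases and desaturases, 4 of 15 regulators, 3 of 16 triglyceride synthesis genes and 3 of 16 adipocyte genes, all with a smaller difference in males, beside 2% of all genes. Fabp4 (-0.49) and Pparg (-0.57) were among the adipocyte genes called, and Lipe (-0.46) and Prkar2b (-0.70) were called as well. Slc25a1 (-0.70, adjusted p = 0.0554), Aacs (-0.51, adjusted p = 0.14), Hacd2 (-0.38, adjusted p = 0.125) and Fads3 (0.06, adjusted p = 0.935) did not pass. Among fat cell genes, Cidec (-0.07, adjusted p = 0.94), Plin1 (-0.30, adjusted p = 0.625) and Lep (1.28, adjusted p = 0.15) did not pass either.

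Ucp1 was counted by sex as well. It reached 1 CPM in 23 of 25 female and 10 of 25 male Scd1-high libraries, and its median there was 49.7 CPM in females and 0.532 CPM in males. Its male minus female effect of -3.13 did not pass by edgeR (adjusted p = 0.133, and 0.137 with Adipoq as covariate), while limma on the VST called it at -3.40 (adjusted p = 6.62e-05). Lymphocyte RNA was present in 10 female and 5 male Scd1-high libraries. Without the libraries with Ucp1, which leaves 2 female Scd1-high libraries, 4 genes were called for the difference between the sexes, and without those with lymphocyte RNA 33. Fasn had a male minus female effect of -0.71 (adjusted p = 0.9997) without the first and of -1.48 (adjusted p = 0.0131) without the second. Without the libraries with Ucp1, Elovl6 went from -1.74 to -2.69 and was still called (adjusted p = 0.0338), while G6pdx (-0.81), Pparg (-0.68), Lipe (-0.58) and Prkar2b (-0.75) lost the call with effects no smaller than before, and Thrsp went from -1.67 to -0.11. With so few female libraries left, leaving out the Ucp1 libraries separates sex from Ucp1 RNA poorly in the high set. The parts of sex and Ucp1 RNA were not tested apart. Between generations, 0 genes were called for a different effect by edgeR and 0 by limma, with 1066 and 1057 genes at an unadjusted p under 0.05.

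**Figure D5:**
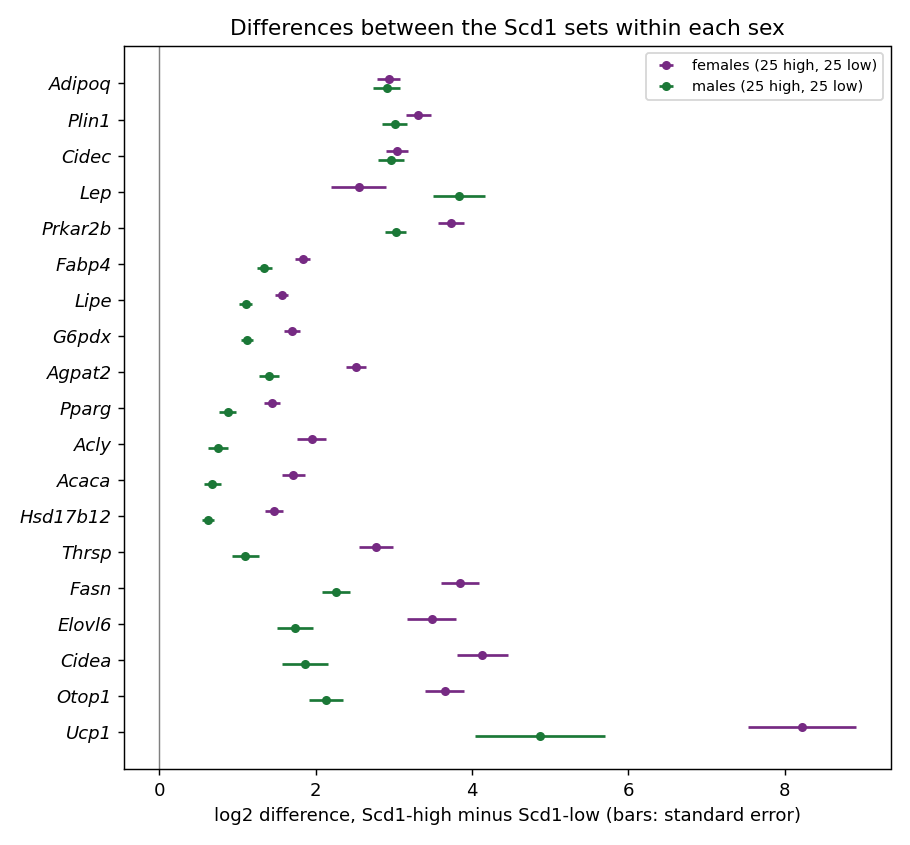
Log2 differences, Scd1-high minus Scd1-low, fitted in females alone (purple, 25 against 25 libraries) and in males alone (green, 25 against 25), with bars of 1 standard error. Adipoq lies at 2.93 and 2.91 in both sexes, while Fasn lies at 3.85 in females and 2.26 in males.

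Genes near Scd1 were counted to see whether the sets differ along the chromosome. Of 118 tested genes that start within 4 Mb of Scd1, 34 (28.8%) were called, 17 higher and 17 lower, beside 24.5% of all genes. Pgam1, a glycolytic enzyme gene 2.48 Mb away, differed by 0.54 ± 0.06 (SE, adjusted p = 2.48e-13) and by 0.30 in the sets chosen after Adipoq (adjusted p = 0.00278). Crtac1, Pik3ap1, Col17a1 and Blnk rose by 1.99, 1.498, 1.19 and 0.76, and Got1 and Ankrd2 fell by 0.23 and 0.37 on the log2 scale. In the sets chosen after Adipoq the sign turned for 7 of the 34, namely Col17a1 (-0.34, adjusted p = 0.654), Scd3, Sh3pxd2a, Sfrp5, Sufu, Btrc and Marveld1, and Crtac1 (0.61, adjusted p = 0.185), Pik3ap1 (0.12, adjusted p = 0.848) and Blnk (0.06, adjusted p = 0.907) kept their sign without passing. With Adipoq as covariate Col17a1 had -1.79 (adjusted p = 0.684). In the sets chosen after Adipoq, 5 of the 118 (4.24%) were called, beside 1.97% of all genes, namely Pgam1, Scd2, Exosc1, Actr1a and Sema4g. Actr1a and Sema4g were named after their values were seen. The other neighbours called between the sets were Scd3, Hps1, Cfap43, Cnnm2, Cox15, Twnk, Nolc1, Sh3pxd2a, Sfrp5, Sufu, Cuedc2, Btrc, Marveld1, Poll, Arl3, Psd, Lzts2, Mrpl43, Neurl1a, Ndufb8, 4930505N22Rik, Pyroxd2, Rrp12, Wbp1l and Entpd7, with log2 differences from -0.29 for 4930505N22Rik to 1.73 for Scd3. No genotypes were analysed here.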

How the data were processed

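RNA from gastrocnemius muscle of Diversity Outbred mice was sequenced, 1 library per animal. The authors made the deposited expected counts with EMASE and GBRS against founder genomes on GRCm38, joining both mates as single reads, so that totals count read ends. The deposited score is the DESeq2 variance stabilising transform by the authors, used to rank Scd1 and Adipoq. The expected counts were rounded to whole numbers.

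Sets, lists and tests were chosen with earlier results of these data known. Of 20612 genes, filterByExpr (minimum count 10) kept 18823 and removed 1789, and 18822 were tested without Scd1. Counts were scaled by TMM and tested with the quasi-likelihood test of edgeR 4.0.16 in R 4.3.3, with sex and generation groups as covariate and Benjamini-Hochberg adjustment over all genes. Adipoq, as log2 CPM with a prior count of 2, was added as a covariate. The libraries in neither set were fitted with the Scd1 score as slope. Alternatives used limma 3.58.1 and DESeq2 1.42.0. Single values were compared by permutation within groups (100000 resamples, 20000 for medians) with numpy 2.4.6, pandas 2.3.3 and scipy 1.17.1 in Python 3.11.15. The plain comparison of 2 sets by edgeR and limma was tested on simulated data. The fits with Adipoq, the slopes, the tests between sexes and the permutation tests were not.

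Genes were named by rule: the 10 largest rises and 10 largest falls past the threshold with a mean of at least 1 CPM and 1 sign in all 10 groups, the same with Adipoq as covariate, fixed lipid genes, up to 4 members of each list with the smallest p, and called genes near Scd1. Srgap3, other list members and the lymphocyte genes were named after their values were seen. A few genes are not reported here. Totals of 35.9 to 165.7 M read ends limit counting error, and the spread between animals sets the precision. Reads of near-identical genes such as Scd1 to Scd4 may be shared, and use of strand is not given in the sources used here. Start and end equalled GENCODE M21 for 99.23% of genes. In 2 pairs of columns names stood in exchanged places and were taken as right. Reading the title number as generation is an assumption, and the wave of animals is not in the labels. Each library is an animal, so p-values measure the spread between animals.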

Additional observations from a re-analysis of the deposited data

Results flagged for a closer look

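The difference between the Scd1 sets itself differed between females and males for 2% of genes by the interaction test of edgeR. Of the named genes 18 were among them, all with a smaller difference in males. The male minus female effect on the log2 scale was -1.58 for Fasn, -1.20 for Acly, -1.04 for Acaca, -1.74 for Elovl6, -0.84 for Hsd17b12 and -0.57 for G6pdx among genes that make or lengthen fatty acids. It was -1.11 for Agpat2, -0.42 for Dgat1, -0.42 for Acsl5, -0.49 for Fabp4 and -0.46 for Lipe among genes that store, carry or release them. It was -1.67 for Thrsp, -0.66 for Insig1 and -0.57 for Pparg among regulators, -2.27 for Cidea and -1.51 for Otop1 among brown fat genes, -0.70 for Prkar2b and -0.80 for Lyz2. Ucp1 reached 1 CPM in 23 of 25 female and 10 of 25 male Scd1-high libraries, and its own male minus female effect did not pass by this test (-3.13, adjusted p = 0.133). Of the 18 genes, 15 were called by limma on the VST, 10 without the libraries with lymphocyte RNA and 1, Elovl6, without those with Ucp1. Without the Ucp1 libraries Cidea went to 0.22 and Otop1 to 0.0062, Acaca to -0.28 and Acly to -0.56. Lyz2 was -0.298 without lymphocyte RNA (adjusted p = 0.914) and was not called by limma (adjusted p = 0.201).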

How the results depend on the processing

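Shares are of all genes tested. The 24.5% called between the sets became 14.9% with 3 libraries per end, 21.7% in females alone and 5.03% in males alone. It became 1.97% in sets chosen by Scd1 after Adipoq and 3413 to 4310 genes without 1 generation. In alternatives added after seeing the data it became 8.83% without libraries with lymphocyte RNA and 4.82% without those with Ucp1. The 6.62% at 1.5-fold became 3.86% at 2-fold, 2.4% without lymphocyte RNA, 1.84% without Ucp1 and, in settings also added later, 1.55% by limma on the VST scale, 2.91% with a mean of at least 1 CPM, 2.08% in males alone, 0.165% in the sets chosen after Adipoq and 1093 to 1282 genes without 1 generation. With Adipoq as covariate 0.0478% became 0.0213% with total counts alone, 0.186% by DESeq2, 0.0266% with the stretch of library numbers, in males or without generation 17, 0.0159% with 3 per end or with the square of Adipoq added, 0.197% with 10 per end, 0.0106% in females, with the Adipoq score or without generation 19 or 21, 0.00531% without generation 23, 0.0797% with a score of other adipocyte genes, 0.0903% without Ucp1 libraries and 9.05% as a slope over all libraries. In the libraries of neither set 17.6% became 10.9% without lymphocyte RNA, and 4.12% with Adipoq became 1.9% with the stretch and 2.01% with blocks of 96 library numbers, also added later. In the sets chosen after Adipoq 1.97% became 3.04% with those blocks, 0.531% without lymphocyte RNA and 0.983% without Ucp1. The 2% that differed between the sexes became 0.537% by limma, 0.175% without lymphocyte RNA and 0.0213% without Ucp1, and the 0 genes between generations became 0.00531% without lymphocyte RNA. Where libraries were left out, fewer were compared, and otherwise the cause was not tested. With a mean of at least 1 CPM required, 47.1% of the called genes were higher.

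In the sets chosen after Adipoq the sign turned for Scd3 (-0.196), Angptl4 (-0.0566), Ucp2 (-0.0379), Nr1d2 (0.0469), Ciart (0.0691), Bhlhe41 (0.119), Cldn5 (-0.0289), Myh2 (0.0159), Cpt1a (-0.0354), Gsn (-0.0489), Pi16 (-0.101), Nr4a1 (0.0256), Hk2 (0.0274), Gys1 (0.0418), Insig2 (0.032), C1qb (-0.103), Lyz2 (-0.0759) and C1qa (-0.0587). Among genes near Scd1 it also turned in these sets for Col17a1 (-0.341), Sh3pxd2a (-0.061), Sfrp5 (-0.083), Sufu (-0.0096), Btrc (0.036) and Marveld1 (-0.066). The sign turned for Egr3 without lymphocyte RNA (-0.043) and for Gys1 without Ucp1 (0.0122). No paired analysis was possible because each animal gave 1 library and the sets share no replicate number.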
